A study of Mus musculus with 12 samples.

Results

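Peritoneal exudate cells (PECs) that had been cultured with LPS for 8 hr were compared with unstimulated PECs, with WT and Zc3h12a S513A/S513A (S513A) cells in 1 model and genotype as a term. The members of the comparison are the 8 libraries labelled 0 or 8 hr, of 12 libraries in the series. There were 4 groups of 2 libraries each: WT cells at 0 hr, WT cells after 8 hr of LPS at 100 ng/ml, S513A cells at 0 hr, and S513A cells after 8 hr of the same dose. The other 4 libraries, at 4 hr, are used only to place the late state in time. PECs were collected from the peritoneal cavity of mice injected with thioglycollate, an irritant that draws monocytes into the cavity, where they become macrophages, so all groups, the unstimulated cells included, consist of elicited cells that were also cultured. S513A mice are homozygous for S513A, a change of serine to alanine in Regnase-1, the RNase encoded by Zc3h12a. It was made by genome editing in C57BL/6J eggs and present in all cells. WT mice were C57BL/6. Sources used here do not say whether the 2 libraries of a group came from separate mice, so p values measure the spread between libraries, which may be technical.

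LPS, a component of the outer membrane of Gram-negative bacteria, is bound by CD14 and recognised by the receptor TLR4 with its partner MD-2. TLR4 signals through the adaptor MyD88, which activates NF-kappaB and MAP kinases, and through the adaptor TRIF, which activates IRF3 and the production of type I interferon. Interferon then acts back on the cells through its receptor and JAK-STAT signaling. Transcripts that respond early, such as those of cytokines, are held in check by inhibitors made in the same response and by RNases that degrade their mRNA, while the later state of the macrophage includes lasting changes in metabolism, antigen presentation and uptake.

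Reads on the listed genes numbered 9525979 to 12439960 in the 8 libraries, and 3 reads, the floor used here, correspond to a log2 CPM (reads scaled to the size of each library, as CPM, on a log2 scale) between -2.04 and -1.40. The first principal component of the 8 libraries held 77.3% of the variance and separated the time points, with scores of -56.59 to -51.21 at 0 hr and 47.53 to 59.30 at 8 hr. On the second component, with 9.63% of the variance, S513A replicate 1 at 8 hr stood apart at -36.19, whereas the other 3 libraries of 8 hr lay between 3.92 and 20.64. Transcripts of ribosomal proteins were lowest in that library: the median log2 CPM of 97 such genes was 6.77 in this library, 7.75 in S513A replicate 2 at 8 hr, 7.95 and 8.12 in WT at 8 hr, 7.16 and 7.86 in WT at 0 hr, and 8.45 and 8.12 in S513A at 0 hr. Macrophage markers were all present, with a summed level of 20600 to 24500 CPM at 0 hr and 16200 to 23900 CPM at 8 hr over 7 genes. Of 9 neutrophil markers, 4 were listed, with sums of 741 to 829 and 491 to 682 CPM, most of it Mmp8, and T and NK cell, B cell, mast cell and dendritic cell markers stayed under 26 CPM in sum in each library. Mesothelial cell and fibroblast markers summed to 20.8 to 61.8 CPM at 0 hr and 21.3 to 56.1 CPM at 8 hr. Siglecf, an eosinophil marker also found on other cells, fell by 2.17 on the log2 scale, and its part in other decreases was not tested. In bulk RNA, fewer cells of a type and less RNA per cell cannot be told apart.

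Zc3h12a itself, on chromosome 4 at 125118414 to 125127881 of GRCm38 (mm10), had log2 CPM of 5.39 and 5.20 in WT and 4.99 and 5.09 in S513A at 0 hr, and 6.89 and 6.80 in WT and 7.11 and 6.99 in S513A at 8 hr. All 8 hr libraries lay above all 0 hr libraries, and the log2 fold change was 1.78 ± 0.11 (SE; limma, adjusted p = 2.74e-06). Reads per gene do not show the S513A codon, so these values do not check the genotype labels.

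After 8 hr of LPS, 2723 of 11730 genes tested were higher (23.2%) and 2478 were lower (21.1%) at an adjusted p of 0.05 in limma, together 44.3%. No unstimulated cells of 8 hr were analysed here, so for every gene LPS and time in culture cannot be told apart. The changes reached further upward than downward. At least a 2-fold increase was found for 1006 genes (8.58%) and at least a 2-fold decrease for 879 (7.49%), but at least an 8-fold increase for 204 and decrease for 52, and at least a 32-fold increase for 51 and decrease for 1. The median log2 fold change over all genes was -0.004, and the median SE was 0.13. The 4 libraries of 8 hr lay all above or all below the 4 of 0 hr in 43.9% of the genes tested. Without S513A replicate 1 at 8 hr, 3020 genes were higher and 2690 lower.

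**Figure D1:**
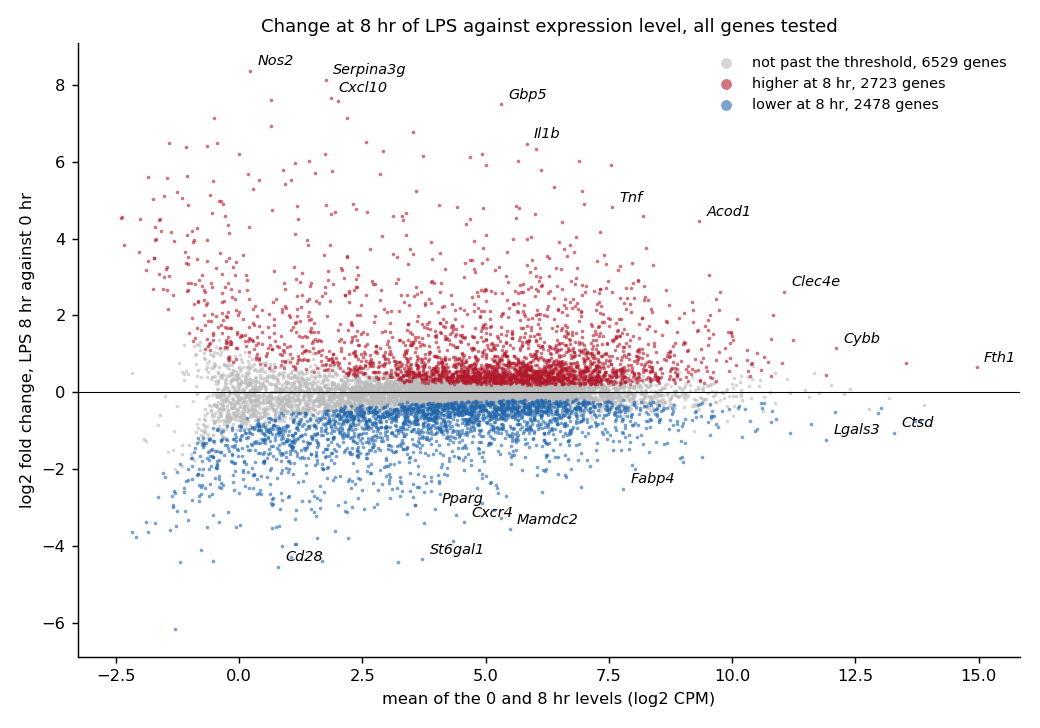
Each point is 1 of the 11730 genes tested, with the mean of its 0 and 8 hr levels (log2 CPM) on the x axis and its log2 fold change at 8 hr of LPS on the y axis, red for the 2723 higher, blue for the 2478 lower and grey for the rest. Increases reach 8.37 for Nos2, whereas the most abundant genes, such as Fth1 and Ctsd, lie within about 1 of the zero line.

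The 12 largest increases included genes for effector enzymes, interferon-induced GTPases, protease inhibitors and cytokines. Nos2, which encodes inducible nitric oxide synthase (chromosome 11, 78920787 to 78960226), had 3 reads in all at 0 hr, all in WT replicate 2, and 920 reads in the 4 libraries at 8 hr. Its levels at 8 hr were 3.86 and 4.18 log2 CPM in WT and 4.70 and 4.91 in S513A. The ratio of its reads was 371, with an exact 95% interval of 127 to 1800 that covers counting error only, since so few reads stood at 0 hr. Serpina3g, a serpin of a mouse gene cluster, rose from 11 reads to 2395, a ratio of 264 (147 to 529), and its neighbour Serpina3f from 5 to 912, a ratio of 221 (94.3 to 682). These serpins are close copies of each other, and how reads shared between copies were counted is not given in the sources used here. Ch25h, which makes 25-hydroxycholesterol, had 2 reads at 0 hr and 361 at 8 hr, a ratio of 219 (60.1 to 1810).

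Other genes of this group were measured well above the floor at 8 hr. Cxcl10, a chemokine for T cells, had log2 CPM of -1.67, -4.70, -0.60 and -0.87 at 0 hr (WT replicates 1 and 2, then S513A replicates 1 and 2) and 5.45, 5.88, 5.54 and 5.95 at 8 hr. Gbp5, a guanylate-binding GTPase that promotes inflammasome activity, had 0.88, 1.08, 2.18 and 2.14 at 0 hr and 8.61, 8.94, 9.34 and 9.36 at 8 hr, a log2 fold change of 7.49 ± 0.14 (adjusted p = 2.32e-08). Il1b, the precursor of IL-1 beta, went from 3.06, 2.24, 2.31 and 2.79 to 9.02, 9.21, 8.78 and 9.24, a log2 fold change of 6.46 ± 0.19 (adjusted p = 6.72e-08). In each of these genes the 2 time points were separated by more than 5 log2 units in every library. The remaining genes among the 12 largest increases were Iigp1, an immunity-related GTPase (7.57 ± 0.47), Il12b and Il12a, the subunits of IL-12 (7.13 ± 0.21 and 6.52 ± 0.30), Ifi44 (a read ratio of 112, 56.3 to 259) and Ms4a4c (6.77 ± 0.23).

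**Figure D2:**
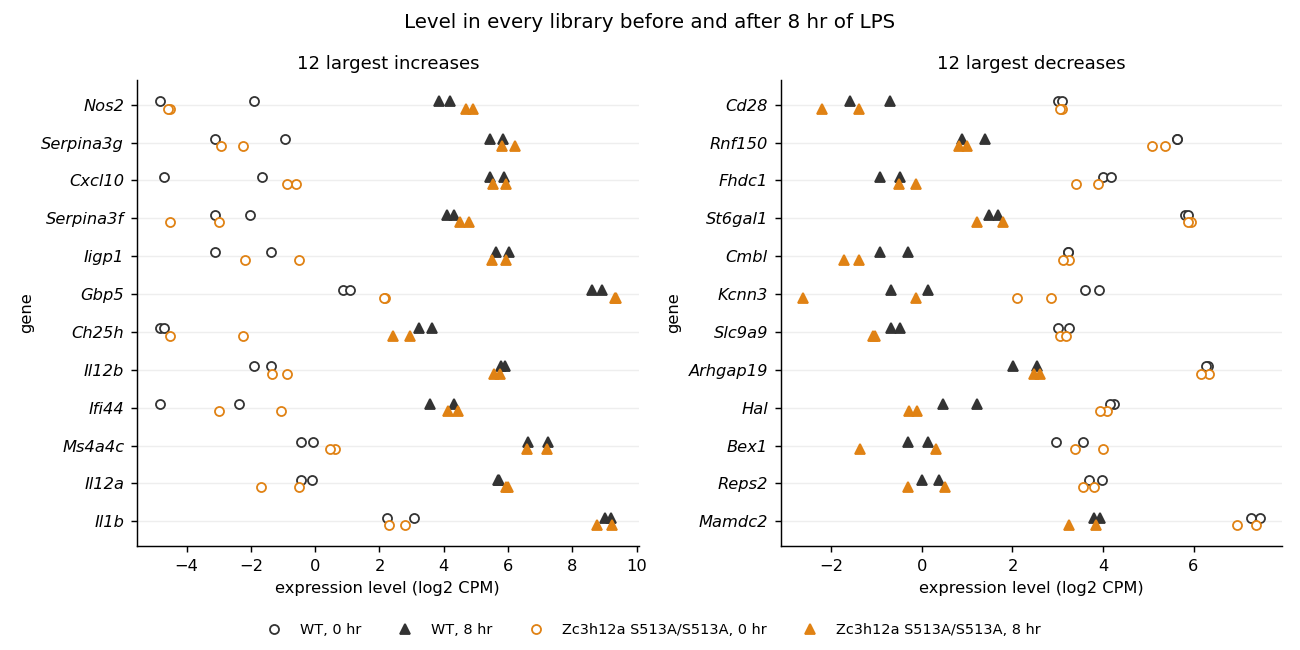
Level (log2 CPM, x axis) of the 12 genes with the largest increase (left) and the 12 with the largest decrease (right), with 1 symbol per library, open circles for 0 hr, filled triangles for 8 hr, black for WT and orange for S513A. Circles and triangles do not overlap in any of the 24 genes, as the rule that chose them required, and symbols on the far left of the 0 hr groups stand for 0 to a few reads.

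Of the 12 genes with the largest increase, 10 had a promoter in the RefSeq set for GRCm38.p6, taken from 250 bases before to 50 bases after the start site. The windows below show, in capitals, the letters of an interferon-stimulated response element (GAAANNGAAA) or of a kappaB site, the motif named for NF-kappaB, in promoters of named genes that rose at 8 hr and, for comparison, of Vegfa, which fell. They are written 5′ to 3′ on the strand of the gene, and a match on the other strand is shown as it reads on the gene's strand.
Cxcl10, interferon-stimulated response element, chr5:92349083-92349112, minus strand: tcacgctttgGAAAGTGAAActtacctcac
Cxcl10, kappaB site, chr5:92349029-92349058, minus strand: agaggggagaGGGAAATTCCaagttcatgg
Cxcl10, kappaB site, chr5:92348973-92349002, minus strand: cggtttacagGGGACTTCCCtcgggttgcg
Gbp5, interferon-stimulated response element, chr3:142496759-142496788, plus strand: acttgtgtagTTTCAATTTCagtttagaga
Gbp5, kappaB site, chr3:142496847-142496876, plus strand: ggagaggaaaGGAAATTCCCagggctggcc
Serpina3g, kappaB site, chr12:104236052-104236081, plus strand: agaactgttaGGGGGTTTCCgaacaggaaa
Socs1, interferon-stimulated response element, chr16:10785600-10785629, minus strand: agacttgccgGAAAGAGAAAccgaaagcgg
Cxcl3, kappaB site, chr5:90786018-90786047, plus strand: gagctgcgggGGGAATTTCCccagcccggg
Il6, kappaB site, chr5:30013060-30013089, plus strand: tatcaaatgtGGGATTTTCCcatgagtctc
Vegfa, interferon-stimulated response element, chr17:46032500-46032529, minus strand: ggggtttagcTTTCCATTTCgcggtagtgg
Vegfa, kappaB site, chr17:46032476-46032505, minus strand: tagtggcctaGGGGCTCCCCgaaaggcggt
The letters thus stood in promoters of genes that rose and of genes that fell: among named genes that fell, Cxcl14 and Suclg2 also held the interferon-stimulated response element, and Ifi30 and Bmf a kappaB site. Cxcl10 and Il6, although far above 0 hr at 8 hr, were below their 4 hr level. Searched on both strands, the interferon-stimulated response element was in 16.0% of 337 promoters of genes at least 4-fold higher at 8 hr, in 4.17% of 168 promoters of genes at least 4-fold lower, in 2.46% of promoters of genes not past the threshold, and in 3.49% of all 27025 promoters of the set. A kappaB site was in 12.8%, 5.95%, 4.31% and 4.35% of the same groups. An AP-1 site (TGANTCA) was in 15.7%, 10.1%, 4.51% and 7.93%, and TATAAA in 16.0%, 11.3%, 6.03% and 14.2%. A cyclic AMP response element (TGACGTCA) was in 1.78%, 1.79%, 3.69% and 1.88%, and CCAAT in 33.8%, 38.7%, 39.4% and 37.9%. A kappaB site can match the same bases on both strands and was counted once per promoter. These shares describe letters in genes that were grouped by their change, and carry no test.

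The gene lists below were chosen with earlier results of these data known, and members named beyond the rule for named genes were chosen after their values were seen. Each count is to be read against the shares of 23.2% higher and 21.1% lower over all genes. Some members, such as Nos2, Cxcl10 and Il6, were under 1 CPM in every 0 hr library. They passed the filter through their 8 hr libraries alone, which favoured an increase, and are included in the counts. Members near or under 1 CPM at 8 hr that fell met the filter mainly through their 0 hr libraries, which favoured a decrease.

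Among cytokines, 17 of 22 members tested were higher at 8 hr and 2 lower, with a median log2 fold change of 3.12. Tnf had log2 CPM of 4.90, 4.88, 5.21 and 5.61 at 0 hr and 9.73, 9.91, 10.03 and 10.17 at 8 hr, and rose by 4.81 ± 0.11 (adjusted p = 2.32e-08). Il6 had -0.76, -3.12, -1.70 and -1.77 at 0 hr, at or under the floor in 3 libraries, and 3.94, 4.29, 3.64 and 4.59 at 8 hr, a log2 fold change of 5.95 ± 0.46. Every 0 hr value of Il6 was under 1 CPM, so it passed the filter through its 8 hr libraries alone and is described with no test. Increases also included Il27 (4.88), Inhba, a subunit of activin A (4.69), Csf3, which encodes G-CSF (4.59), Il1a (3.65) and Il18 (2.60). Il1rn, the antagonist of the IL-1 receptor, rose by 1.64. Vegfa, an angiogenic factor, fell by 2.14 ± 0.10 (adjusted p = 5.42e-07), from 4.93 to 5.32 at 0 hr to 2.78 to 3.06 at 8 hr, and Igf1, a growth factor, fell by 0.68 ± 0.15 (adjusted p = 0.00471). Il10, Ifnb1 and Csf2 were not analysed here. Over the whole list, 0.112 to 0.120% of reads at 0 hr and 0.311 to 0.368% at 8 hr fell on cytokine genes. Such shares are of the reads on listed genes, whereas CPM and fold changes use an effective library size. That size was above the reads in every 0 hr library, as in WT replicate 1 (14351670 against 12439960). At 8 hr it was above them only in S513A replicate 1, so shares and CPM give unlike sizes of change.

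Chemokines rose broadly as well, with 15 of 19 higher, 2 lower and a median of 2.97. Ligands of the neutrophil receptor CXCR2 were among them: Cxcl3 rose from 3.60 to 4.17 at 0 hr to 9.72 to 10.11 log2 CPM at 8 hr (6.02 ± 0.13, adjusted p = 2.32e-08), Cxcl2 by 5.23, Cxcl1 by 4.78 and Cxcl5 by 4.48. Cxcl9, a chemokine induced by interferon gamma, had 3 reads at 0 hr and 292 at 8 hr, a ratio of 118 (39.9 to 575). Ccl5 rose by 5.92, and the monocyte attractants Ccl2, Ccl7 and Ccl12 by 2.84, 3.27 and 3.84. Ccl6 and Cxcl14 went the other way, with falls of 1.51 ± 0.21 (adjusted p = 0.000459) and 1.19 ± 0.21 (adjusted p = 0.00165). The list took 0.124 to 0.166% of reads at 0 hr and 0.545 to 0.634% at 8 hr.

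All 55 interferon-stimulated genes tested were higher at 8 hr, each by at least 2-fold, and their median log2 fold change was 3.37. Increases ran from 1.19 for Irf9, a subunit of the factor that binds interferon response elements, to 7.57 for Iigp1. Antiviral effectors included Ifit2 (6.32), Ifit3 (6.18), Mx1 (6.11), Ifit1 (6.01), Isg15, a ubiquitin-like modifier (5.77), Rsad2, which encodes viperin (4.89), and Oasl1 (4.54). Regulators of the pathway moved with them, namely Irf7 (4.17), Usp18, an inhibitor of interferon receptor signaling (3.95), and Stat2 (2.52), as did the RNA sensors Dhx58 (3.03), Ifih1 (2.89) and Ddx58 (2.76). Ifit, Gbp, Ifi200 and Oas genes have near-identical relatives, and their single values are uncertain to the extent that reads were shared. This list held 0.198 to 0.209% of reads at 0 hr and 1.49 to 1.99% at 8 hr. Between 54 and 55 members were higher in every alternative tried.

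Of the genes tested, 4 had no read in any 0 hr library. They passed the filter on low values through their 8 hr libraries alone, so their direction was set by the filter and they are described with no test. Ifng, which encodes interferon gamma, had 18, 21, 19 and 20 reads at 8 hr, at least 7.87-fold higher when 3 reads per library are allowed at 0 hr. Il22 had 5, 10, 13 and 10 reads (at least 3.83-fold higher), and Shisa3 had 22, 39, 60 and 35 (at least 15.7-fold higher). Mir155, the gene of a miRNA known for its induction in activated macrophages, had 12, 10, 5 and 12 reads on its transcript (at least 3.93-fold higher), which does not measure the mature miRNA. Its main mature product (RefSeq, GRCm38.p6, chr16:84714143-84714165, plus strand) is printed with the seed, bases 2 to 8, in capitals.
mmu-miR-155-5p: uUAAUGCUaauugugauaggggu
The reverse case, which passed the filter through its 0 hr libraries, was Slco2b1, a transporter of organic anions, with 56, 59, 30 and 33 reads at 0 hr and no read in any 8 hr library, at least 12.3-fold lower.

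Genes listed as inhibitors of TLR4 and cytokine signaling were higher in 24 of 33 cases and lower in 2, with a median of 1.54. The list also counts Nfkb1, Nfkb2, Bcl3 and Nfkbiz, of the NF-kappaB and IkappaB families, which do not act only as inhibitors. Socs1, which blocks JAK kinases, rose from 1.22, 0.51, 0.70 and 0.85 to 5.42, 5.31, 5.32 and 5.59 log2 CPM (4.59 ± 0.16, adjusted p = 1.36e-07). Socs3 rose by 2.82 ± 0.18 (adjusted p = 3.37e-06), and Nfkbiz, which encodes IkappaB zeta, by 2.65 ± 0.12 (adjusted p = 4.99e-07). NF-kappaB inhibitors Nfkbia (2.25), Nfkbie (2.15), Tnip1 (2.06) and Tnfaip3, which encodes A20 (1.54), were higher, as was Irak3, an inhibitory kinase-like protein (2.20). Zc3h12c, a relative of Zc3h12a, rose by 2.63. Otud7b, a deubiquitinase, fell by 0.54 ± 0.10, and Dusp5, a MAP kinase phosphatase, by 0.59 ± 0.18, with an adjusted p of 0.0267 that exceeded 0.05 without either WT library of 0 or 8 hr, S513A replicate 1 at 8 hr or S513A replicate 2 at 0 hr (-0.60 to -0.53), and with quantile normalization (-0.46). Of the TLR4 pathway itself, 16 of 25 components were higher and none lower, with a median of 0.51. Cd14 rose from 6.49 to 6.83 at 0 hr to 9.20 to 9.76 log2 CPM at 8 hr (2.92 ± 0.13, adjusted p = 5.49e-07), Ikbke by 1.37 ± 0.12 and Myd88 by 1.26 ± 0.08, while Tlr4 and Ly96, which encodes MD-2, had log2 fold changes of -0.13 and 0.17 that did not pass.

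Enzymes of nitric oxide, itaconate and oxidant metabolism were higher in 18 of 25 cases and lower in 1. Acod1, which makes itaconate from an intermediate of the TCA cycle, rose from 7.01, 6.67, 7.35 and 7.40 to 11.47, 11.64, 11.54 and 11.57 log2 CPM (4.45 ± 0.13, adjusted p = 6.39e-08), or from 141 ± 31.3 to 3010 ± 145 CPM (mean ± SD, n = 4). Among supply and cofactor genes of NO synthesis, Slc7a2, an arginine transporter, rose by 3.76 ± 0.08, Gch1, for tetrahydrobiopterin, by 2.08, and Ass1, for arginine recycling, by 1.48, while Asl, also for arginine recycling, and Pts, also for tetrahydrobiopterin, had -0.13 and -0.35, which did not pass. Arg1, which consumes arginine in another way, fell by 2.82 ± 0.23 (adjusted p = 1.62e-05). Its levels were 3.75, 3.21, 2.00 and 2.37 at 0 hr and 1.28, 0.65, -0.83 and -1.04 at 8 hr, lower in S513A than in WT at both times. Cybb, the catalytic subunit of the phagocyte NADPH oxidase, rose from 3000 ± 355 to 6630 ± 426 CPM (1.15 ± 0.11, adjusted p = 3.30e-05). Antioxidant genes Sod2 (2.61), Slc7a11 (2.36), Hmox1 (1.62), Txnrd1 (1.47) and Srxn1 (1.23) were higher too.

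Of lipid mediator enzymes, 6 of 18 were higher and 10 lower. In the inducible route to prostaglandin E2, Ptgs2, which encodes COX-2, went from 2.25, 1.53, 2.26 and 2.17 to 7.45, 7.71, 8.38 and 8.35 log2 CPM (5.92 ± 0.17, adjusted p = 5.56e-08), and Ptges rose by 3.42 ± 0.14 and the phospholipase gene Pla2g4a by 1.44. In contrast, the leukotriene genes Alox5 (-2.11), Ltc4s (-1.48), Lta4h (-1.05) and Alox5ap (-0.75), the constitutive COX-1 gene Ptgs1 (-2.19), the prostaglandin D synthase gene Hpgds (-2.62) and the thromboxane synthase gene Tbxas1 (-0.71) were lower. Of acute-phase and antimicrobial genes, 16 of 19 were higher and none lower. Lcn2, which binds bacterial siderophores, rose by 3.75 ± 0.23 (adjusted p = 2.83e-06), from 2.79, 2.88, 3.22 and 3.42 to 7.26, 7.06, 6.23 and 6.77, and Fpr1, Fpr2, Ptx3, Cfb and C3 rose by 3.20, 3.19, 2.81, 2.13 and 1.82.

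In MHC class I presentation and the immunoproteasome, 17 of 21 members were higher and 1 lower, with a median of 1.78. Tap1, a peptide transporter subunit, rose from 5.45, 5.11, 5.14 and 5.26 to 8.21, 8.34, 8.71 and 8.59 (3.22 ± 0.12, adjusted p = 1.73e-07), Nlrc5, the transactivator of class I genes, rose by 3.13 ± 0.17, and the proteasome subunits Psmb9, Psmb10 and Psmb8 rose by 2.03, 1.91 and 1.78. H2-Q6 rose by 3.04 ± 0.31, although its reads may be shared with H2-Q7. Pdia3 fell by 0.27 ± 0.09, a call lost without WT replicate 1 at 8 hr, WT replicate 2 at 0 hr, either S513A library of 0 hr or S513A replicate 2 at 8 hr (-0.29 to -0.23). In class II, none of 9 genes was higher and 2 were lower, near the share of all genes: Ifi30, a lysosomal reductase for antigen processing, fell by 1.17 ± 0.16 (adjusted p = 0.000333) and H2-DMa by 0.80 ± 0.13 (adjusted p = 0.00109). The chains H2-Aa, H2-Ab1 and H2-Eb1, Cd74 and Ciita had log2 fold changes of -0.12, 0.43, -0.21, 0.21 and 0.40, which did not pass. As reads, the whole list took 0.897 to 1.10% at 0 hr and 0.556 to 0.741% at 8 hr. It includes Ifi30 and Ctss, the latter among the 10 genes with most reads at 0 hr (-0.42, not past the threshold). This share thus does not measure the class II chains alone, and its denominator is not that of the CPM.

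Costimulatory and adhesion genes were higher in 13 of 16 cases and lower in 1. Cd40, a receptor for help from T cells, rose from 3.03, 3.14, 3.34 and 3.62 to 7.77, 8.23, 7.91 and 8.40 log2 CPM (4.79 ± 0.15, adjusted p = 7.32e-08), and Cd69 by 4.63 ± 0.19. Icosl (3.51), Il15ra (2.85), Icam1 (2.44), Ccr7, the receptor for homing to lymph nodes (2.38), Cd274, which encodes PD-L1 (2.26), and Cd86 (1.04) were higher. Slamf1 had 7 reads at 0 hr and 153 at 8 hr, a ratio of 26.5 (12.5 to 66.9). Cd80 had a log2 fold change of -0.43 that did not pass, and the fall of Cd83 (0.30 ± 0.10, adjusted p = 0.0365) was lost without WT replicate 1 at 8 hr, WT replicate 2 at 0 hr or any S513A library (-0.32 to -0.23).

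The 12 largest decreases were in genes of varied function, and 6 of them had a mean log2 CPM under 0 at 8 hr. Those 6 met the filter mainly or wholly through their 0 hr libraries, which favoured a decrease. Rnf150, an E3 ubiquitin ligase gene (chromosome 8, 82863266 to 83091271), had log2 CPM of 5.63, 5.63, 5.37 and 5.08 at 0 hr and 0.89, 1.39, 0.82 and 1.00 at 8 hr, a fall of 4.40 ± 0.14 (adjusted p = 8.67e-08). St6gal1, which adds sialic acid to glycoproteins, went from 5.82, 5.88, 5.95 and 5.87 to 1.49, 1.68, 1.80 and 1.22 (-4.34 ± 0.13, adjusted p = 8.20e-08). Cd28, best known as a costimulatory receptor of T cells, had 3.01, 3.10, 3.10 and 3.05 at 0 hr and -0.70, -1.58, -2.21 and -1.40 at 8 hr, at or under the floor in 3 libraries (-4.54 ± 0.29). Every 8 hr value of Cd28 was under 1 CPM, so it passed the filter through its 0 hr libraries alone and is described with no test. The T cell marker gene Cd2 fell by 1.56 and Lck had 0.86, which did not pass, both with means under 1 log2 CPM at each time. Mamdc2 (chromosome 19, 23302609 to 23448497) was the most abundant of the 12 largest decreases and went from 7.46, 7.27, 7.38 and 6.97 to 3.93, 3.80, 3.85 and 3.24 (-3.56 ± 0.15, adjusted p = 3.06e-07). In CPM this was 156 ± 22.2 against 13.3 ± 2.59 (mean ± SD, n = 4).

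The other 8 of the largest decreases were Fhdc1 (-4.39 ± 0.23), Cmbl (-4.29 ± 0.25), Kcnn3, a calcium-activated potassium channel (-3.94 ± 0.49), Slc9a9, an endosomal sodium/proton exchanger (-3.94 ± 0.18), Arhgap19, a GTPase-activating protein (-3.86 ± 0.13), Hal, which degrades histidine (-3.78 ± 0.23), Bex1 (-3.78 ± 0.38) and Reps2 (-3.62 ± 0.20). Kcnn3 varied most between libraries, from 2.09 to 3.91 at 0 hr and from -2.62 to 0.13 at 8 hr, yet without overlap. Of the 12 genes, 9 had a promoter in the RefSeq set.

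Genes of macrophage identity were divided, with 8 of 24 higher and 9 lower. The transcription factor genes Klf4, Cebpa and Mef2c fell by 1.31, 1.06 and 0.89. Trem2, a lipid receptor, fell by 1.33 ± 0.18 (adjusted p = 0.000421). Adgre1, which encodes F4/80, rose from 10.02 to 10.25 at 0 hr to 11.35 to 11.58 at 8 hr (1.38 ± 0.09, adjusted p = 3.14e-06), and Cebpb, Fcgr1, Spi1 and Csf1r rose by 1.28, 1.12, 0.55 and 0.42.

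Receptors for chemokines, other attractants, nucleotides and adenosine, counted as 1 list, were lower in 11 of 22 cases and higher in 7. Cxcr4, the receptor for CXCL12, fell from 6.16, 6.13, 6.32 and 6.40 to 3.05, 3.01, 2.62 and 2.83 (-3.37 ± 0.12, adjusted p = 1.36e-07). Ccr2 and Ccr1, receptors for inflammatory CC chemokines, fell by 1.84 and 1.05, and Ltb4r1, the leukotriene B4 receptor, by 2.15. Gpr183, a receptor for oxysterols derived from 25-hydroxycholesterol, fell by 3.06 ± 0.34 (adjusted p = 0.000121), from 2.46 to 2.88 at 0 hr to -1.22 to 0.46 at 8 hr. It met the filter mainly through its 0 hr libraries, which favoured a decrease. Ccrl2, Cx3cr1, Gpr18 and Cmklr1 went the other way and rose by 2.33, 2.22, 2.08 and 1.35, and the nucleotide receptor P2ry14 rose by 0.70. The adenosine receptors Adora2a and Adora2b rose by 2.57 and 1.74, whereas Adora3 fell by 1.15. P2ry12 had 58 reads at 0 hr and 6 at 8 hr, a ratio of 7.98 (3.45 to 22.6).

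Uptake receptors, bridging molecules and complement genes were lower in 17 of 35 cases and higher in 10. The 3 genes of the C1q complex, C1qa, C1qb and C1qc, fell by 1.22, 1.64 and 1.64. The lectins Clec10a (-2.39 ± 0.17, adjusted p = 6.61e-06) and Mrc1, the mannose receptor (-1.98), were lower, as were Gas6 (-1.94) and Mfge8 (-0.87), which bridge receptors to dying cells. Axl, a receptor for Gas6, rose from 4.68 ± 0.25 to 7.35 ± 0.21 log2 CPM (mean ± SD, n = 4; 2.68 ± 0.14, adjusted p = 1.16e-06). Clec4e, the Mincle receptor for mycobacterial glycolipid, rose from 884 ± 253 to 5310 ± 770 CPM (2.62 ± 0.18, adjusted p = 4.54e-06).

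Lysosomal genes took a smaller part of the reads on listed genes at 8 hr, a share whose denominator is not that of the CPM. The 46 genes of lysosomal enzymes, membrane proteins and the vacuolar ATPase held 7.98, 7.60, 7.56 and 7.26% of reads at 0 hr and 4.57, 4.64, 4.68 and 4.42% at 8 hr, with no overlap between time points. Of these genes 23 were lower and 5 higher, with a median log2 fold change of -0.29, and 22 to 30 members were lower in the alternatives tried. Ctsd, the protease cathepsin D, fell from 13.82, 13.78, 13.83 and 13.80 to 12.84, 12.94, 12.56 and 12.68 (-1.05 ± 0.12, adjusted p = 0.000149), or from 14300 ± 228 to 6940 ± 826 CPM (mean ± SD, n = 4). Psap, which encodes the saposins, went from 17400 ± 858 to 10400 ± 761 CPM (-0.75 ± 0.13, adjusted p = 0.00144). Atp6v0d2, a vacuolar ATPase subunit of macrophages and osteoclasts, fell by 1.80 ± 0.12 (adjusted p = 3.43e-06), Atp6v0a1 by 1.31 ± 0.13, Ctsl by 1.07 ± 0.14, and Tfeb, a transcription factor for lysosomal genes, by 0.82. Ctsc, which activates granule proteases, rose by 0.80. Other abundant transcripts that fell were Gpnmb (18700 ± 911 to 11100 ± 875 CPM), Lgals3, which encodes galectin-3 (5930 ± 743 to 2550 ± 443 CPM), and the elastase gene Mmp12 (9650 ± 1020 to 6690 ± 644 CPM). With quantile normalization the calls of Psap, Gpnmb and Mmp12 were lost, at -0.40, -0.53 and -0.08, as was that of Fth1 below, at 0.21. Increases in the most abundant transcripts were Fth1, the ferritin heavy chain (25700 ± 5130 to 40400 ± 6530 CPM, adjusted p = 0.0334), and Prdx1, a peroxiredoxin (9220 ± 1850 to 16000 ± 3930 CPM, adjusted p = 0.0268). Fth1 rose by 1.06 in WT and had 0.26 in S513A, Prdx1 had 1.28 and 0.27, and S513A replicate 1 at 8 hr lay level with the highest 0 hr library for Fth1 (14.93 log2 CPM in each) and inside the 0 hr range for Prdx1 (13.33). Both calls were lost without any of the 4 WT libraries or S513A replicate 2 at 8 hr, and that of Fth1 also without S513A replicate 1 at 0 hr, at 0.53 to 0.72 for Fth1 and 0.65 to 0.74 for Prdx1.

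Of the synthesis genes for cholesterol and fatty acids, 25 of 33 were higher and 2 lower, with a median of 0.50, and 16 were higher with quantile normalization. Fads2, a fatty acid desaturase, rose by 2.40 ± 0.18 (adjusted p = 9.30e-06), and the sterol genes Hsd17b7 and Lss by 1.35 ± 0.10 and 1.06 ± 0.08. Dhcr7 and Elovl5 fell by 0.58 ± 0.13 and 0.74 ± 0.07. Of genes for uptake, storage and efflux, 13 of 25 were lower and 7 higher. Pparg, a nuclear receptor for fatty acids, fell from 5.28, 5.39, 5.69 and 5.54 to 2.52, 2.67, 2.50 and 2.13 (-3.02 ± 0.14, adjusted p = 6.28e-07). Fatty acid binding proteins Fabp4 (-2.51 ± 0.23, adjusted p = 3.30e-05) and Fabp5 (-1.70), and the cholesterol exporter Abcg1 (-1.38), were lower, whereas the exporter Abca1 (0.94) and Dgat2, a triglyceride synthase (2.73 ± 0.43, adjusted p = 0.000848), were higher.

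Glycolysis and hypoxia genes had 7 of 23 higher and 6 lower, and their median was 0.00. The hexose transporter Slc2a6 rose by 2.60 ± 0.10 (adjusted p = 2.43e-07), Hk2 by 0.76, Hif1a by 0.56 and Slc2a1 by 0.46, while Ndrg1 fell by 2.36 ± 0.14 (adjusted p = 1.84e-06), Pdk1, a brake on pyruvate dehydrogenase, by 1.18 ± 0.14, and Ldha by 0.51. Gapdh, often taken as a reference gene, had a log2 fold change of 0.00 ± 0.13, with 0.30 in WT and -0.29 in S513A. Actb rose by 0.44 ± 0.11 (adjusted p = 0.012), a call lost with quantile normalization at 0.34. Genes of the TCA cycle and the respiratory chain were mostly not past the threshold, with 6 of 41 lower and 2 higher, below the shares of all genes. The 6 lower genes included the dehydrogenase Idh2 (-0.97 ± 0.12, adjusted p = 0.000214) and the ligase Suclg2 (-1.46 ± 0.17). They also included Idh1 (-0.76) and Mdh1 (-0.76 ± 0.17), which are on the list but encode cytosolic dehydrogenases. Cs, the citrate synthase gene, and Mdh2 rose by 0.45 ± 0.08 and 0.36 ± 0.08, calls that were lost with quantile normalization at 0.19 and 0.10. This list had 5 higher and 6 lower without S513A replicate 1 at 8 hr, and 12 lower with quantile normalization.

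Cell cycle and replication genes were lower in 24 of 54 cases and higher in 9, with a median of -0.36, at levels that were low throughout: the list held 0.105 to 0.111% of reads at 0 hr and 0.0953 to 0.0974% at 8 hr. E2f2 went from 168 reads to 10, a ratio of 13.9 (7.36 to 29.5), Cdkn2c fell by 2.25 ± 0.23, and Myc by 1.14. Ccnd2, a D-type cyclin, rose by 3.11 ± 0.23 (adjusted p = 8.09e-06), and Cdkn1a, which encodes the inhibitor p21, by 1.21. Cdk1 and Top2a fell by 1.07 and 0.88, while Mki67 rose by 1.98. With only genes of at least 5 CPM on average, 13 were lower and 4 higher. Ribosome biogenesis genes, which act in the nucleolus, were higher in 21 of 35 cases and lower in none, each by less than 2-fold, led by Bop1 (0.95 ± 0.07, adjusted p = 1.29e-05), Bysl (0.73 ± 0.10) and Rrp9 (0.69 ± 0.08).

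Clock genes were lower in 8 of 18 cases, including Dbp, an output gene of the clock (-1.96 ± 0.17, adjusted p = 2.64e-05), and Bhlhe40 (-1.57 ± 0.08, adjusted p = 9.87e-07), which went from 7.74, 7.67, 7.75 and 7.71 to 6.03, 6.07, 6.36 and 6.13. Npas2 had -1.64 ± 0.51 with an adjusted p of 0.0285 that exceeded 0.05 without either WT library of 0 hr or S513A replicate 2 at 8 hr (-1.67 to -1.30), and Bhlhe41 rose by 0.29 ± 0.08, a call lost with quantile normalization at 0.03. As for every gene, time in culture and LPS cannot be told apart, since no unstimulated cells of 8 hr were analysed here. Of TGF-beta and growth factor genes, 8 of 23 were higher and 9 lower. The receptor Tgfbr2 fell by 1.49 ± 0.09 (adjusted p = 2.75e-06) and the insulin receptor substrate Irs2 by 1.55 ± 0.18, whereas Smad6, an inhibitory SMAD, rose by 1.43 ± 0.16.

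Genes of cell death and survival were higher in 19 of 30 cases and lower in 5. Nlrp3, the inflammasome sensor, rose from 4.73, 4.58, 4.46 and 4.62 to 7.27, 7.38, 7.94 and 7.80 (3.00 ± 0.14, adjusted p = 5.32e-07), Casp4 by 2.31, Casp1 by 1.74 and Gsdmd, the pore former of pyroptosis, by 1.19, while Pycard, the adaptor between sensor and caspase, fell by 0.88. Mlkl, the executor of necroptosis, rose by 2.60 ± 0.09 (adjusted p = 1.41e-07) and Ripk3, its activating kinase, fell by 1.01. The survival genes Bcl2a1a (2.59 ± 0.28, shared reads with Bcl2a1b and Bcl2a1d being possible), Cflar (2.46) and Birc3 (1.69) rose, and the BH3-only genes Bcl2l11 and Bbc3 fell by 0.87 and 0.61. Unfolded protein and amino acid stress genes had 7 of 25 higher and 5 lower, near the shares of all genes, with Slc3a2 (1.20 ± 0.08), Phgdh (1.14 ± 0.16) and Mthfd2 (1.01 ± 0.09) highest and the chaperone gene Hspa5 at 0.12, not past the threshold.

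**Figure D3:**
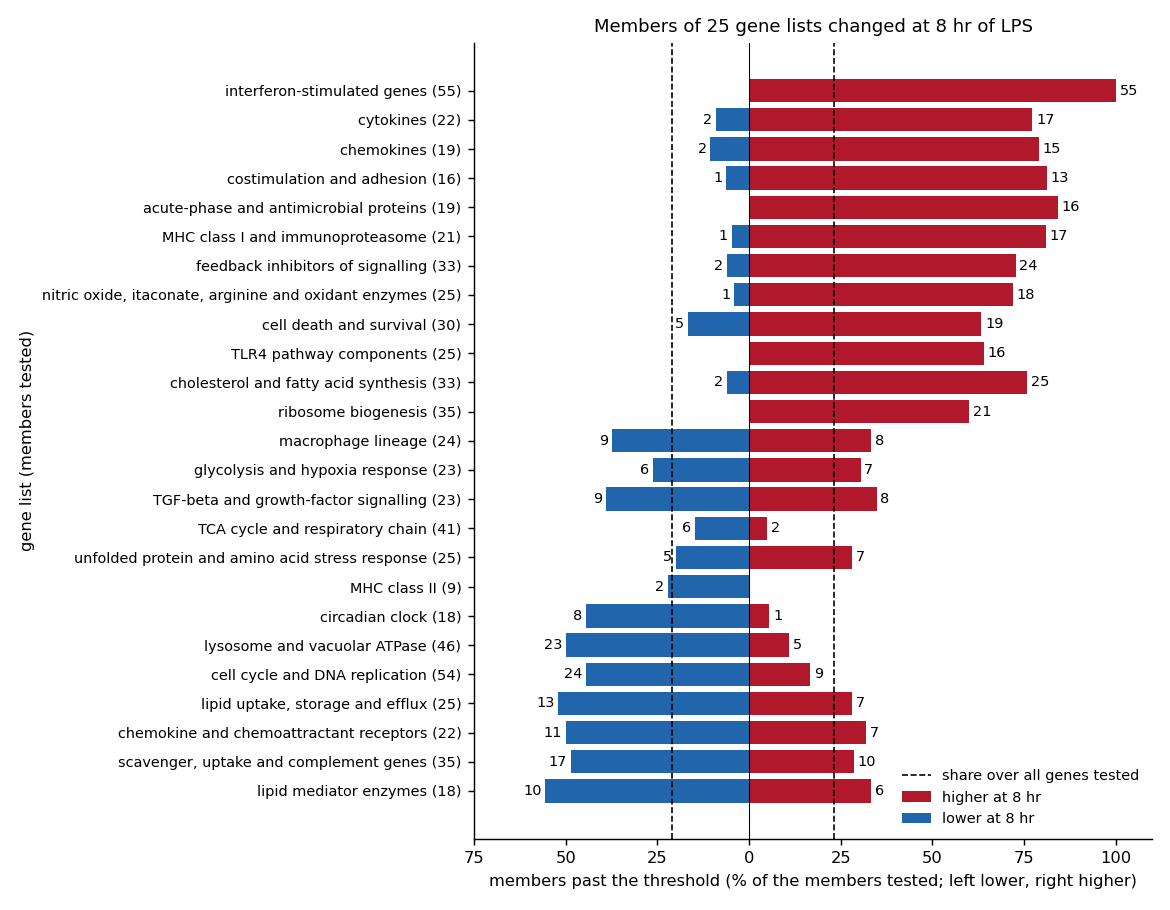
For each of 25 gene lists (members tested in brackets), red bars give the percentage of members higher at 8 hr and blue bars to the left the percentage lower, with the number of genes beside each bar and dashed lines at the shares over all genes, 23.2% higher and 21.1% lower. Lists are ordered by median log2 fold change, and all 55 interferon-stimulated genes are in the upper bar.

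Levels at 4 hr place the late state in time. Both comparisons use the same 0 hr libraries, so their values are given side by side. At 4 hr, 29.6% of 11763 genes were higher and 27.4% lower than at 0 hr. Cytokines had a median log2 fold change of 4.93 at 4 hr and 3.12 at 8 hr, chemokines 4.37 and 2.97, and inhibitors of signaling 1.96 and 1.54, whereas interferon-stimulated genes had 3.37 at both times and MHC class I genes 1.18 and 1.78. Costimulatory genes had 1.88 and 2.32, although in the direct comparison 3 of 16 were higher at 8 hr than at 4 hr and 6 lower, with a median of -0.19. For MHC class I genes the direct comparison had 4 of 21 higher, none lower and a median of 0.49. The members tested differed between the times, with 24 cytokines at 4 hr and 22 at 8 hr, and 18 and 19 chemokines. With no filter, 24 cytokines had a median of 2.47 at 8 hr.

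Tested directly, 8.83% of 11550 genes were higher at 8 hr than at 4 hr and 8.87% lower, 1020 and 1025 genes. Of cytokines, 16 of 24 were lower at 8 hr than at 4 hr and 1 was higher, and of inhibitors of signaling 15 of 33 were lower and none higher. Interferon-stimulated genes went both ways, with 14 of 55 higher and 19 lower. These counts were sensitive to single libraries: without WT replicate 1 at 4 hr, WT replicate 1 at 8 hr, S513A replicate 1 at 4 hr or S513A replicate 2 at 8 hr, 573 to 656 genes were higher and 539 to 577 lower, and without WT replicate 2 at 8 hr 682 were lower. Ccl4 had log2 CPM of 8.47 to 9.38 at 4 hr and 5.09 to 5.63 at 8 hr, lower by 3.55 ± 0.14 (adjusted p = 5.1e-05). Cxcl10 was lower at 8 hr than at 4 hr by 3.19, Tnfsf15 by 3.03, Il6 by 2.70 and Il12b by 1.80, and all of them were still above their 0 hr levels. Adgrl2 was above its 0 hr level at 4 hr (1.82) and below it at 8 hr (-0.74 ± 0.17, adjusted p = 0.00761).

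Some genes continued upward or downward after 4 hr. Serpina3g rose by a further 2.05 between 4 and 8 hr (adjusted p = 0.000184), from 3.40 to 3.99 log2 CPM to 5.44 to 6.23, Cxcl9 by 1.86, Ms4a4c by 1.79 and Ifi44 by 1.51. Wnk2 had 2.92 at 0 hr, 2.53 at 4 hr and 4.71 at 8 hr on average. On the repressed side, Slc9a9 had -1.40 at 4 hr and -3.94 at 8 hr, Mamdc2 -1.40 and -3.56, and Cmbl -2.15 and -4.29, and between 4 and 8 hr their log2 fold changes were -2.55, -2.16 and -2.15. Other repressed genes had recovered in part: Cxcr4 was at -4.54 at 4 hr and -3.37 at 8 hr, Arhgap19 at -5.50 and -3.86, Bmf, a BH3-only gene, at -5.03 and -2.26, and Tmem86a and Foxred2 at -3.08 and -1.05 and at -2.99 and -0.96. Each of these was higher at 8 hr than at 4 hr, by 1.17 to 2.78.

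**Figure D4:**
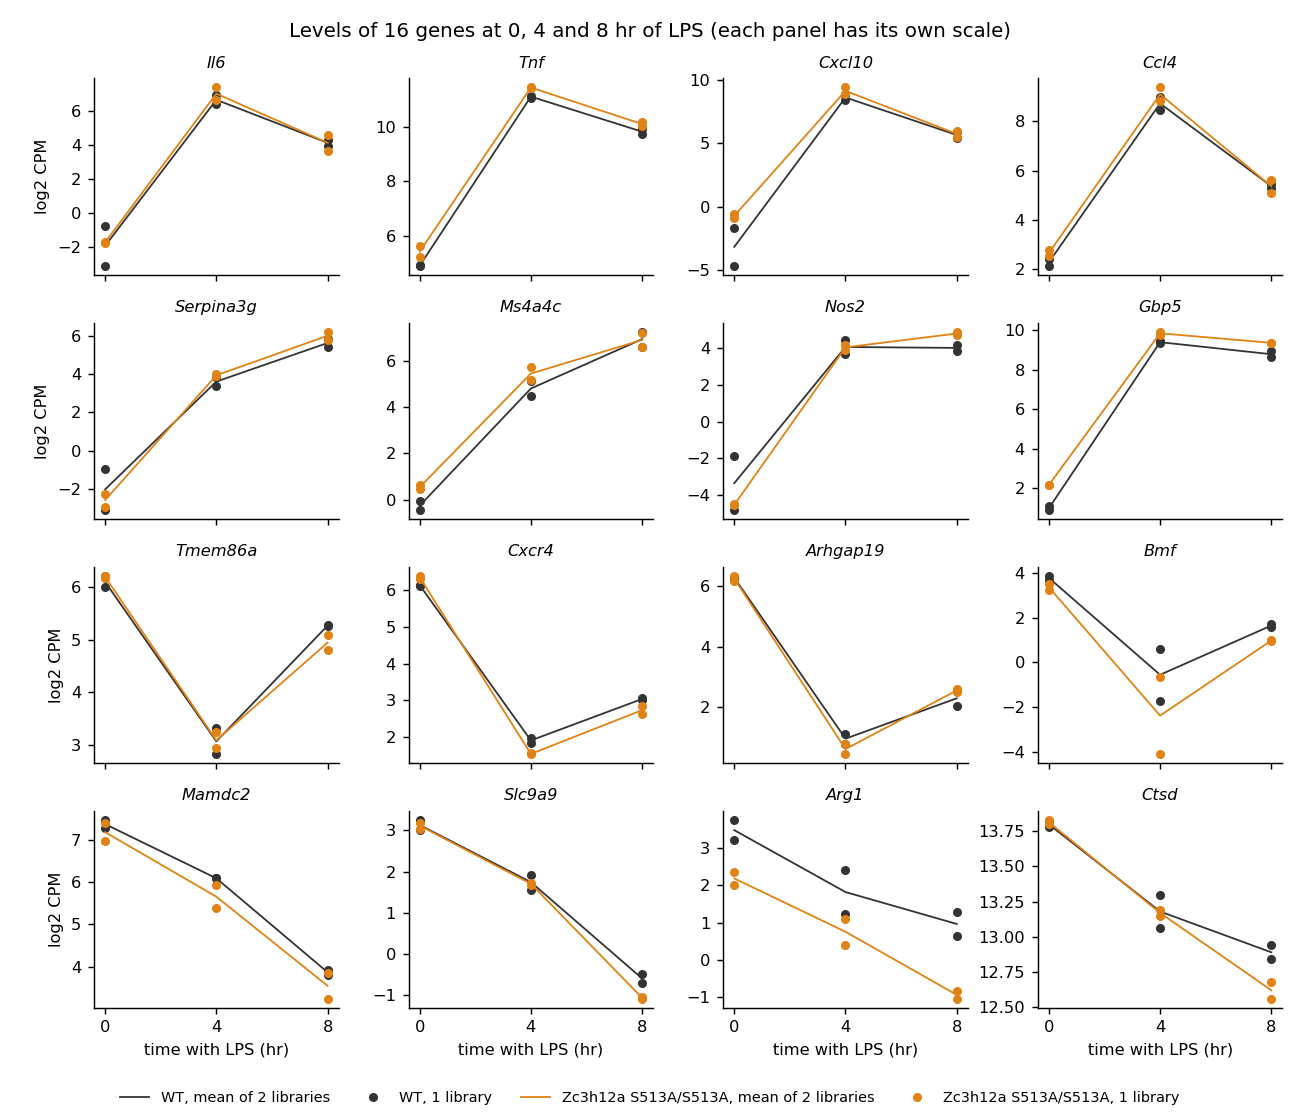
Levels (log2 CPM, y axis, own scale per panel) of 16 genes at 0, 4 and 8 hr of LPS (x axis), with 1 point per library and lines through the means of 2 libraries, black for WT and orange for S513A. The upper row shows genes that peaked at 4 hr, such as Ccl4 at 8.47 to 9.38, the second row genes near or above their 4 hr level at 8 hr, the third row genes lowest at 4 hr, and the lowest row genes lowest at 8 hr.

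The 2 genotypes were then set side by side, since each rests on its own 4 libraries. In WT, 5117 genes (43.6%) were changed at 8 hr, 2782 higher and 2335 lower, and in S513A 5643 (48.1%), 2882 higher and 2761 lower. With quantile normalization, 43.3% of the genes called in WT were higher, against 54.4% with the deposited scaling. Nos2 had log2 fold changes of 7.38 in WT and 9.35 in S513A, Cxcl10 8.85 and 6.48, Gbp5 7.80 and 7.19, Il1b 6.46 and 6.46, Tnf 4.93 and 4.69, Il6 6.05 and 5.85, Rnf150 -4.49 and -4.31, Mamdc2 -3.50 and -3.63, and Ctsd -0.91 and -1.20. For Nos2, Cxcl10 and Il6 the values at 0 hr were a few reads. For Cxcl10 the genotypes overlapped at 8 hr, whereas for Nos2 the S513A libraries (301 and 278 reads) also lay above those of WT (152 and 189 reads) at 8 hr.

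The difference between genotypes was tested as an interaction. At an adjusted p of 0.05 in limma it was past the threshold for 0 of 11730 genes, with 3795 at an unadjusted p under 0.05, a smallest adjusted p of 0.0534, and 1419 genes with an adjusted p under 0.06. Other scalings put it on the other side of the threshold, with 1081 genes by median-ratio scaling and 1397 by quantile normalization. So did voom weights, which kept the deposited library sizes, with 1463 genes. It also rested on single libraries, with 1005 genes without S513A replicate 1 at 8 hr and 3960 without S513A replicate 2 at 8 hr. Of 97 ribosomal protein genes, 76 were lower in S513A and 3 higher, while in WT 10 were higher and 2 lower, and 6 were called with the genotypes together. Over all genes, 48.1% were changed in S513A, 43.6% in WT and 44.3% together, so the counts in WT and together were below those shares. Counts of ribosomal protein genes turned on single libraries. In S513A, 31 were lower without replicate 1 at 8 hr, 89 without replicate 2 at 8 hr, 5 without replicate 1 at 0 hr and 29 without replicate 2 at 0 hr. In WT, 3 were higher without replicate 1 at 0 hr or replicate 2 at 8 hr, 5 without replicate 1 at 8 hr and 24 without replicate 2 at 0 hr, and the count was 6 without either S513A library of 0 hr and 70 without either S513A library of 8 hr, which changes the shared spread. Of 3343 genes called in both genotypes, each tested separately, 78 had opposite directions, 55 of them higher in WT and lower in S513A. The part of the ribosomal protein shift in the other differences between genotypes was not tested. Among named genes with the smallest adjusted p of 0.0534, Lcn2 had log2 fold changes of 4.32 in WT and 3.18 in S513A, Bcl2a1a 3.30 and 1.88, Nlrp3 2.67 and 3.33, Ikbke 1.07 and 1.67, Nlrc5 2.71 and 3.56, and Trem2 -0.90 and -1.76.

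**Figure D5:**
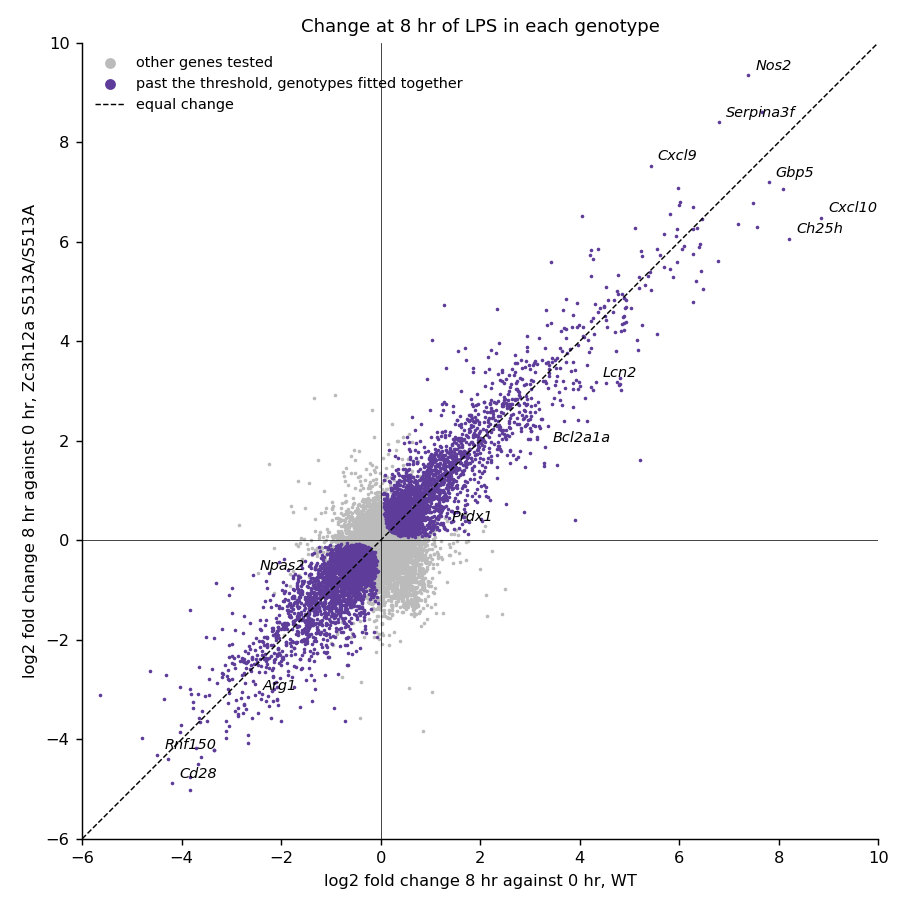
Log2 fold change at 8 hr in WT (x axis) and in S513A (y axis) for each of the 11730 genes tested, purple for the 5201 past the threshold with the genotypes fitted together and grey for the rest, with a dashed line of equal change. Genes with few reads at 0 hr, such as Nos2 (7.38 and 9.35) and Cxcl10 (8.85 and 6.48), lie farther from the line than Gbp5 (7.80 and 7.19).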

How the data were processed

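PECs from WT and S513A mice were left unstimulated or stimulated with LPS (100 ng/ml), and poly(A) RNA was sequenced in pairs of reads. The authors mapped the reads to mm10 with HISAT2 as unstranded and counted them with featureCounts 1.6.3, so that reads of overlapping and antisense genes cannot be told apart. The deposited values are log2 CPM of 12850 genes, the log2 of the reads plus 0.5 over an effective library size. The program that made them, the gene annotation and the filter on genes are not given in the sources used here. Whole reads were recovered from the step between low values, with a largest departure of 0.00144 read. Intervals and floors on reads cover counting error only.

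Log2 values were tested with limma 3.58.1 in R 4.3.3, on the 11730 genes that reached 1 CPM in 2 or more of the 8 libraries, with genotype and LPS as terms (5 residual degrees of freedom) and a prior that follows the mean level. Changes per genotype and the interaction came from a mean for each of the 4 groups (4 residual degrees of freedom). All p values are two-sided, with Benjamini-Hochberg adjustment across the tested genes and a threshold of 0.05. The comparisons with 4 hr were fitted alike. Values after ± are SE unless SD is stated. The fit of 8 hr against 0 hr with both genotypes together was tested on simulated data, and the other fits were not. Tables and plots were made with Python 3.11.15, pandas 2.3.3 and matplotlib 3.10.9.

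Members, gene lists and tests were chosen with earlier results of these data known. Named genes were the 12 largest increases and decreases among genes past the threshold with no overlap between time points and a log2 CPM of at least 3 in the higher group, the 3 largest changes in each list by the same rule and the exceptions to a list's direction where there were 3 or fewer, the 5 largest rises and falls in CPM, the 5 highest and lowest at 8 hr against 4 hr among genes past both, and Zc3h12a, Il6, Tnf, Nfkbiz, Ptgs2, Il12b, Actb and Gapdh. Some genes that these rules name are not reported here. Gene positions and promoters are those of RefSeq on GRCm38.p6, the assembly of mm10, with a promoter for 78.8% of the genes tested. Alternatives were no filter, a filter at a mean of 5 CPM, 1 CPM added before the log2, a replicate block, a mean per group, all 12 libraries, no trend, a robust prior, median-ratio scaling, quantile normalization, voom weights and each library left out.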

Additional observations from a re-analysis of the deposited data

How the results depend on the processing

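The counts at 8 hr against 0 hr kept within 1.5 times their value in every alternative, with 4369 to 5710 genes changed (2293 to 3020 higher, 2076 to 2690 lower) when a library was left out, 2304 higher and 2859 lower with quantile normalization, and 2371 and 1868 with a mean of at least 5 CPM. When a library was left out, WT had 3199 (without WT 8 hr replicate 2) to 6220 genes and S513A 3817 to 6219. The interaction had 0 genes except with median-ratio scaling (1081), quantile normalization (1397), voom weights (1463), without S513A 8 hr replicate 1 (1005) and without S513A 8 hr replicate 2 (3960), a range of 0 to 3960 over the libraries left out. Genes at 8 hr against 4 hr ranged from 573 to 1424 higher and from 539 to 1423 lower over the libraries left out. The cause of these shifts was not tested. Whether replicate numbers pair the libraries is not given in the sources used here. Deviations of libraries with the same replicate number correlated at 0.155 in WT and -0.119 in S513A between 0 and 8 hr. Between 4 and 8 hr the correlations were -0.358 in WT and 0.76 in S513A, which does not settle the pairing. A replicate block gave 2336 higher and 2104 lower, and 775 and 740 at 8 hr against 4 hr (1020 and 1025 without it), and the calls of Bhlhe41, Cd83, Dusp5, Fth1, Pdia3 and Prdx1 were lost. Of 2281 alternative values of the 121 named genes, 2234 kept direction and call, none turned, and 47, of 13 genes, lost the call: Actb, Bhlhe41, Cd83, Cs, Dusp5, Fth1, Gpnmb, Mdh2, Mmp12, Npas2, Pdia3, Prdx1 and Psap. The following list counts of 5 or more moved by over 1.5 times. With a mean of at least 5 CPM they were 5 lower for receptors of attractants, nucleotides and adenosine, and 5 lower for clock genes. For the cell cycle they were 13 lower and 4 higher. With quantile normalization they were 16 higher for cholesterol and fatty acid synthesis, 10 lower for glycolysis, 12 lower for the TCA cycle, 5 higher for macrophage lineage, 8 lower for the stress response and 2 higher for lysosomal genes. The lysosomal list had 9 higher and the TCA list 10 lower with a mean per group, 8 higher lysosomal genes were found with all 12 libraries and without S513A 8 hr replicate 1, and 3 without S513A 8 hr replicate 2. List counts of 2 or fewer went to between 0 and 5. With quantile normalization 4 oxidant genes and 4 inhibitors of signaling were lower, 2 TLR4 pathway genes were lower and no TCA gene was higher. With a mean per group, 3 oxidant genes were lower and 4 TCA and 2 MHC class II genes higher. At this depth, genes under 3 reads in a library limit ratios to wide intervals, as for Nos2.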

Other observations

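Marker genes of other peritoneal cell types held some changes of their own. Gata6, the transcription factor of resident peritoneal macrophages, fell by 1.57 on the log2 scale (adjusted p = 0.00712 in limma) from a mean of 1.61 log2 CPM, while Timd4 and Prg4, also marks of resident macrophages, rose by 1.45 and 0.93. Camp, a cathelicidin of neutrophil granules, had a mean under the floor at 0 hr (-3.47) and 1.40 log2 CPM at 8 hr. Mmp8, the most abundant of the neutrophil markers, fell by 0.79 from 9.40. Clec9a fell by 1.78 and Flt3 rose by 1.86, both marks of dendritic cells and both under 2 log2 CPM on average at each time. Every 0 hr value of Camp and of Flt3 was under 1 CPM. Both genes passed the filter through their 8 hr libraries alone, so their direction was set by the filter and they are described with no test. Collagen genes Col1a1, Col1a2 and Col3a1 had log2 fold changes of -0.08, -0.24 and -0.49 that did not pass, and Dcn rose by 1.34. These genes were named after their values were seen.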
